A study of Mus musculus with 15 samples.

Results

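The genes described here are 10 genes of glucose uptake, glycolysis and lactate formation (Slc2a1, Hk1, Hk2, Pfkl, Pfkp, Aldoa, Gapdh, Eno1, Pkm and Ldha), taken as all probe sets that the annotation of the array assigns to one of these symbols alone. Of the 10 genes, 9 were represented, by 22 of the 45101 probe sets on the array. No probe set was listed under the symbol Eno1, so this glycolytic enzyme was not analysed here. A further 4 probe sets carried a listed symbol together with other symbols, 3 for Gapdh with pseudogenes and 1 for Hk1 with Rpl17, and were not used. The remaining Gapdh probe sets were 3 array controls for the 3', middle and 5' stretches of the transcript.

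The study used K-RasG12V knock-in mice, in which Cre recombinase delivered to the lung by an adenovirus switches on the resident oncogenic allele together with a colour marker. Laser capture microdissection at 3 months after infection gave 3 hyperplastic lesions of the H1 subtype, 4 hyperplastic lesions of the H2 subtype and 8 captures of normal lung cells from the same frozen lung sections. All 3 groups therefore came from infected knock-in mice, and the normal captures are from infected lungs. Each capture was amplified and hybridised to 1 Affymetrix array, and values are log2 RMA signals. The sources used here do not say how lesions were assigned to H1 or H2, whether expression values entered that assignment, how many mice were used, or which captures share a mouse, so p-values measure the spread between captures and may be too small where captures share an animal.

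Glycolysis splits glucose into pyruvate in the cytosol and yields ATP without oxygen. Glucose enters through transporters such as GLUT1, is trapped by hexokinase, is committed to the pathway by phosphofructokinase, and is carried to pyruvate by aldolase, glyceraldehyde-3-phosphate dehydrogenase, enolase and pyruvate kinase, after which lactate dehydrogenase can reduce pyruvate to lactate. Several of these genes are known targets of the hypoxia-inducible factor HIF1 and of Myc, and oncogenic Ras is known to raise glucose uptake in several tumour models.

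Of the 8 glycolytic genes compared one by one, 5 averaged higher and 3 lower in H2 lesions than in normal cells. Contrasts between these genes were not tested. In H2 lesions the signal of Hk2, the inducible hexokinase, was 2.32-fold that of normal cells and was called. This call was not kept in 12 of 15 fits with 1 array left out. The glucose transporter Slc2a1 and the lactate dehydrogenase subunit Ldha stood at similar ratios in H2 without passing the test. These differences depended on the fit. With the SD of the signals on each array as a covariate, the median log2 difference of the 8 genes in H2 was -0.16, against 0.44 without it. For Ldha the difference was -0.07, against 1.23. The phosphofructokinase genes on the list, Pfkl and Pfkp, averaged below normal cells in H2. In H1 lesions the differences from normal cells ran between -0.48 and 0.60 on the log2 scale, and none passed the test. Of the genes around the pathway, the monocarboxylate transporters Slc16a1 and Slc16a7 and the lactate dehydrogenase subunit Ldhb passed the test in H2 lesions. They were higher than in normal cells by 2.15 to 2.69 on the log2 scale. The Slc16a1 call held in all 15 fits with 1 array left out and in all 13 other settings of the analysis. The Slc16a7 and Ldhb calls each held in 13 of these 15 fits, and in 8 and 9 of the 13 settings.

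Promoter sequences of the 3 genes with the largest positive differences in H2 lesions and of Pfkl, which averaged lower, are printed because HIF1 binds a short core found near many glycolytic genes. Each is the 250 bases before the start of transcription from RefSeq on mouse build GRCm38.p6, on the strand of the gene and written 5′ to 3′. Capitals mark the core letters ACGTG or GCGTG on either strand. The longer stretch CACGTG, an E-box that Myc can bind, contains the core on both strands and was counted as 1 match. The windows are chr4:119108495-119108744 on the plus strand for Slc2a1, chr6:82774455-82774704 on the minus strand for Hk2, chr7:46845554-46845803 on the plus strand for Ldha and chr10:78009808-78010057 on the minus strand for Pfkl.
Slc2a1: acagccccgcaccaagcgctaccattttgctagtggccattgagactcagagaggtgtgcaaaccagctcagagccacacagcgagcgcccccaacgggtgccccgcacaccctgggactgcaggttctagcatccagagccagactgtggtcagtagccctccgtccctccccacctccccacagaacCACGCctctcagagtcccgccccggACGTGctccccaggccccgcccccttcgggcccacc
Hk2: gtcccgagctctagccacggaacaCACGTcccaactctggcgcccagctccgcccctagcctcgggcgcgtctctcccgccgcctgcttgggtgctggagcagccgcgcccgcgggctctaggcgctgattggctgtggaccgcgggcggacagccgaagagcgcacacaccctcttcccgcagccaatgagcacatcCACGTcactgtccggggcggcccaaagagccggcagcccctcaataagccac
Ldha: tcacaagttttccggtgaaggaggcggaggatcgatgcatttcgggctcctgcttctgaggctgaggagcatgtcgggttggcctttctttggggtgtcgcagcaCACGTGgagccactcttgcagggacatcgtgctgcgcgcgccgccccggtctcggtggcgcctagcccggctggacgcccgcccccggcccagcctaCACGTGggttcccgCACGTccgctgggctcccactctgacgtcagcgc
Pfkl: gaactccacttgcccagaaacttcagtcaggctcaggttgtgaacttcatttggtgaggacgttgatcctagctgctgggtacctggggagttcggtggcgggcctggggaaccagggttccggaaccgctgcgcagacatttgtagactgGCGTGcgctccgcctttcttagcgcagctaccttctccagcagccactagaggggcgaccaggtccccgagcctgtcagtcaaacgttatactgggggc

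The Slc2a1 window held 2 matches, which begin 61 and 36 bases before the start, and the Hk2 window held 2, which begin 226 and 52 bases before it. The printed Ldha window held 3, of which 2 were E-boxes, and they begin 145, 48 and 34 bases before the start. Another annotated Ldha window, not printed, held 1 match and no E-box. The Pfkl window held 1 match at 99 bases, so a match was also present in a promoter whose gene averaged lower in H2 lesions. All 10 genes had at least 1 window with a match, and 14 of their 17 annotated windows held one. Windows of Aldoa and of Eno1 overlap and share matches, so the 14 windows do not all hold separate sites. Over all 32851 mouse windows of this length, 38.6% held a match, 13.5% held at least 2 and 6.02% held an E-box. These shares count windows and not genes, and the windows were not matched for base composition. The 10 genes were not tested against them. A match describes the letters only and was not tested for binding.

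The comparisons were made across 18193 genes, each gene standing for its brightest probe set, with limma's moderated test and Benjamini-Hochberg adjustment over all genes, and adjusted p-values under 0.05 were called. The 8 listed genes with a gene-level value are the 9 above without Gapdh, whose array controls were tested with all 45101 probe sets instead. Between H2 lesions and normal cells 1 of the 8 genes was called, Hk2, against a background of 3.38% of all genes called, 2.89% in the direction of higher in H2. At an unadjusted p under 0.05 the comparison gave 3 genes higher (Slc2a1, Hk2 and Ldha) and 1 lower (Pfkl), against 21.4% of all genes in either direction. The median difference of the 8 genes was 0.44, beside -0.04 over all genes. Between H1 lesions and normal cells 0 of the 8 genes were called by limma, 0 at an unadjusted p under 0.05 against 4.23% of all genes, with 0.011% of all genes called and a median difference of 0.05, beside -0.05 over all genes. Between the 7 lesions together and normal cells 0 of the 8 were called by limma, 3 at an unadjusted p under 0.05 against 12.8% of all genes, with 0.291% of all genes called and a median of 0.27, beside -0.06 over all genes. Between H1 and H2 lesions 0 of the 8 were called by limma, 2 at an unadjusted p under 0.05 and both lower in H1, against 12.3% of all genes, with 0.0055% of all genes called, and the median of H1 minus H2 was -0.40, beside -0.06 over all genes. The comparisons of H1, H2 and all lesions share the same 8 normal arrays. The 3 genes with an unadjusted p under 0.05 over all lesions were Ldha (0.96 ± 0.45, adjusted p = 0.383), Slc2a1 (0.90 ± 0.39, adjusted p = 0.346) and Hk2 (0.81 ± 0.30, adjusted p = 0.270), each above the normal mean on 6 of 7 lesion arrays.

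**Figure D1:**
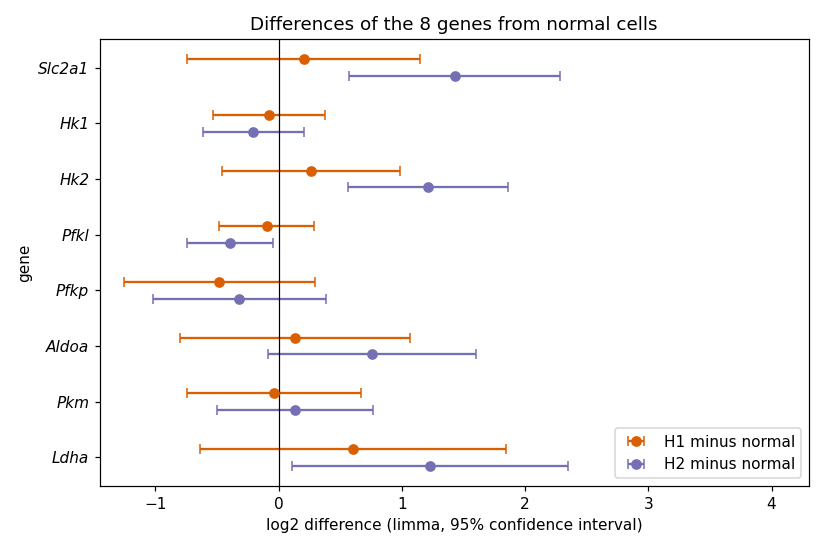
Log2 difference of each of the 8 genes from normal cells (horizontal axis), for H1 minus normal (orange, 3 against 8 arrays) and H2 minus normal (purple, 4 against 8 arrays), with points for the limma estimate and bars for the 95% confidence interval. Slc2a1, Hk2 and Ldha have H2 intervals above 0 and Pfkl has an H2 interval below 0, while all 8 H1 intervals span 0.

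The arrays differed in signal spread. The SD of the gene values on an array, a measure of how far signals spread from dim to bright, averaged 1.42 ± 0.10 in H1 (SD, n = 3), 1.64 ± 0.12 in H2 (n = 4) and 1.38 ± 0.18 in normal cells (n = 8). The mean signal of the 8 genes was 5.17 ± 0.27 in H1, 5.58 ± 0.32 in H2 and 5.11 ± 0.42 in normal cells, and it was highest on the 3 arrays of widest spread. Normal replicate 3, at an array SD of 1.67 and a mean of the 8 genes of 5.88, resembled H2 replicate 7, at 1.78 and 5.87. Normal replicate 2 had the narrowest spread, 1.14, and the lowest mean of the 8 genes, 4.53. With the array SD as a covariate the median H2 difference of the 8 genes was -0.16 and no member was called, against 0.44 and 1 without it. The spread differs between the groups, so its part in the H2 differences cannot be told apart from that of the lesion subtype. Fewer cells of a type and less RNA per cell cannot be told apart in captured bulk samples.

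**Figure D2:**
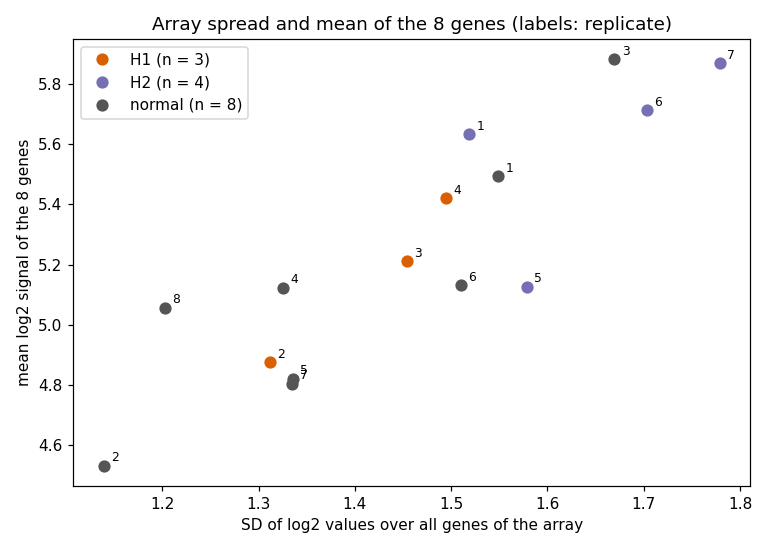
Each point is 1 array, labelled with its replicate number: the SD of log2 values over all genes of the array (horizontal axis) against the mean log2 signal of the 8 genes (vertical axis), coloured by H1, H2 and normal. The 4 H2 arrays have an SD of at least 1.52, and normal replicates 1 and 3 lie among them, whereas normal replicate 2 has the lowest value on both axes.

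Lists of cell-type markers were set beside the H2 and normal values and were not tested as lists. Over all genes 3.38% were called between H2 and normal cells. All 9 measured alveolar type 2 markers averaged higher in H2 than in normal cells, with a median difference of 2.01 and 1 called, the lamellar body transporter Abca3 (2.35). Their summed signal on the log2 scale ranged between 12.02 and 13.8 in H1, between 12.9 and 14.5 in H2 and between 8.17 and 14.7 in normal cells, so the normal captures held widely different amounts of alveolar type 2 RNA. The endothelial list was lower in H2 for 8 of 10 markers, none called, with a median of -0.76. At an unadjusted p under 0.05 it had 5 markers lower, against 21.4% of all genes in either direction. Its summed log2 signals were 8.16 to 8.75 in H2 and 8.09 to 10.9 in normal cells. The macrophage list was higher in H2 for 6 of 8 measured markers, 1 called, with sums of 9.34 to 10.5 in H2 and 7.39 to 9.91 in normal cells, while the macrophage marker Cd68 averaged 4.46 in H1, 4.07 in H2 and 4.17 in normal cells. The fibroblast list was higher in H2 for 5 of 7 markers, with a median of only 0.03 and the collagen gene Col1a2 called (1.57). Its sums were 9.73 to 10.4 in H2 and 7.32 to 9.88 in normal cells. Of 5 club cell markers 1 was called higher in H2, Cyp2f2 (1.57), while the other 4 averaged lower and the median was -0.17. The club cell sums were 6.53 to 7.27 in H2 and 6.44 to 9.24 in normal cells. The remaining lists held no call in H2. Their H2 medians were 0.03 for alveolar type 1 (5 of 8 higher), -0.05 for lymphocyte (4 of 8) and -0.006 for ciliated markers (2 of 5). They were 0.05 for neutrophil (3 of 5), -0.30 for muscle (1 of 9) and -0.36 for erythrocyte markers (0 of 3). The part of these cell types in the results was not tested.

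Glucose entry was represented by Slc2a1, which encodes the facilitative transporter GLUT1. Its brightest probe set read 3.96, 4.67 and 5.55 in H1 lesions and 6.72, 5.06, 6.28 and 5.75 in H2 lesions, in the order of replicates 2, 3 and 4 for H1 and 1, 5, 6 and 7 for H2, which is kept throughout. The 8 normal captures ran from a lowest of 3.76 through a median of 4.56 to a highest of 5.46. Thus 3 of 4 H2 arrays lay above every normal array and the remaining one, replicate 5, lay among them. Of the H1 arrays, replicate 4 also lay above every normal array and the other 2 lay inside the normal range.

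The H2 difference of Slc2a1 was 1.43 ± 0.40 (log2, standard error), or 2.69-fold, with a limma adjusted p of 0.0634 and all 4 H2 arrays above the normal mean, and it therefore did not pass the test. The H1 difference was 0.20 ± 0.44 with a 95% interval of -0.74 to 1.15, and the direct difference of H1 minus H2 was -1.22 ± 0.50 with an adjusted p of 0.359. The H2 call was made when normal replicate 1, 3 or 6 was left out, with adjusted p-values of 0.0375 to 0.0460. The other Slc2a1 probe sets had H2 differences of 0.54 and 0.94 with unadjusted p-values of 0.0963 and 0.0559. In H1 they differed from normal cells by 0.64 and 0.52, and H1 minus H2 was 0.09 and -0.42, none called. All 3 probe sets of the transporter thus averaged higher in H2 than in normal cells, while the low H1 level and the wide gap between H1 and H2 rest on the brightest one.

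Hexokinases phosphorylate glucose and so keep it inside the cell. Hk2, the inducible form, read 5.41, 6.01 and 5.95 in H1 lesions and 6.45, 6.78, 6.67 and 7.04 in H2 lesions. The normal captures had a lowest value of 4.56, a median of 5.47 and a highest value of 6.73. The lowest H2 array was above all 3 H1 arrays and above 7 of 8 normal arrays, with normal replicate 3 the exception. Hk2 had 1 probe set, so no other probe set could be set beside it.

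The H2 difference of Hk2 was 1.21 ± 0.31, or 2.32-fold, with a limma adjusted p of 0.0416 and 4 of 4 H2 arrays above the normal mean. The call was close to the threshold: it held in 3 of 15 fits with 1 array left out (without normal replicate 1, normal replicate 3 or H1 replicate 2) and was lost without any of the other 12, with adjusted p-values of 0.0066 to 0.139 and differences of 1.07 to 1.38. The difference kept its sign in every fit run and fell to 0.63 (adjusted p = 0.407) with the array SD as a covariate. In H1 the difference was 0.26 ± 0.34 (95% interval -0.46 to 0.98). H1 minus H2 was -0.95 ± 0.38 with an adjusted p of 0.354, although the groups did not overlap, as was so for 10.1% of all genes in this direction.

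Hk1, the constitutive hexokinase, had low variation. Its brighter probe set read 4.38, 4.20 and 4.20 in H1 lesions, 4.19, 4.01, 4.19 and 4.16 in H2 lesions, and between 3.94 and 5.05 in normal cells with a median of 4.22. All 7 lesions lay inside the normal range. The H2 difference was -0.21 ± 0.19 with a 95% interval of -0.62 to 0.20, and the H1 difference was -0.08 with an interval of -0.53 to 0.37. The dimmer Hk1 probe set, with a mean at percentile 11.1 of all probe sets, differed by 0.19 in H2. This was the opposite sign, and neither was called. The 2 hexokinase genes thus did not show the same pattern across the groups, although the contrast between them was not tested.

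Phosphofructokinase catalyses the committed step of glycolysis, and Pfkl and Pfkp encode its liver-type and platelet-type subunits. Pfkl read 4.51, 4.50 and 4.56 in H1 lesions and 4.45, 4.00, 4.27 and 4.16 in H2 lesions. The normal captures had a lowest value of 4.27, a median of 4.58 and a highest of 4.99. All 4 H2 arrays were below the normal mean, and all were below the 3 H1 arrays, while 7 of 8 normal arrays were above the highest H2 array.

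The Pfkl difference in H2 was -0.40 ± 0.17 with a limma adjusted p of 0.180 and a 95% interval of -0.75 to -0.05. The other 2 Pfkl probe sets had H2 differences of -0.62 and -0.33, so that all 3 averaged lower. H1 minus H2 was 0.30 (95% interval -0.14 to 0.74), and the 2 lesion groups did not overlap, as was the case for 8.1% of all genes in this direction. The SD of Pfkl over the 15 arrays, 0.25, was in the 5.75th percentile of all probe sets.

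Pfkp read 4.82, 4.57 and 5.04 in H1 lesions and 5.06, 4.63, 5.05 and 5.16 in H2 lesions. The normal captures ran from 4.58 through a median of 5.04 to 6.56. The normal mean rested on replicates 3 and 4, at 6.56 and 6.25, which were above all other arrays. The differences were -0.48 ± 0.37 in H1 and -0.32 ± 0.33 in H2, and neither was called.

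A second Pfkp probe set did not follow the first. Its signal averaged 4.43 ± 0.73 in H1 (SD, n = 3), 3.38 ± 0.10 in H2 (n = 4) and 3.85 ± 0.19 in normal cells (n = 8). Its H1 difference was 0.59 ± 0.24 and its H2 difference was -0.47 ± 0.22, with all 4 H2 arrays below all 8 normal arrays, as held for 1.04% of all probe sets. Its H1 minus H2 difference, 1.06 ± 0.28, had an unadjusted p of 0.0015 and an adjusted p of 0.303 over all probe sets. None of the 22 probe sets was called by limma in any comparison at the probe-set level, where 2.03% of all probe sets were called between H2 and normal cells, 0.169% between all lesions and normal cells, 0.00222% between H1 and normal cells and 0% between H1 and H2. At an unadjusted p under 0.05 the count of the 22 was 5 between H2 and normal cells, against 18.9% of all probe sets. It was 4 between all lesions and normal cells (11% of all), 1 between H1 and normal cells (3.84% of all) and 3 between H1 and H2 (11.5% of all).

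**Figure D3:**
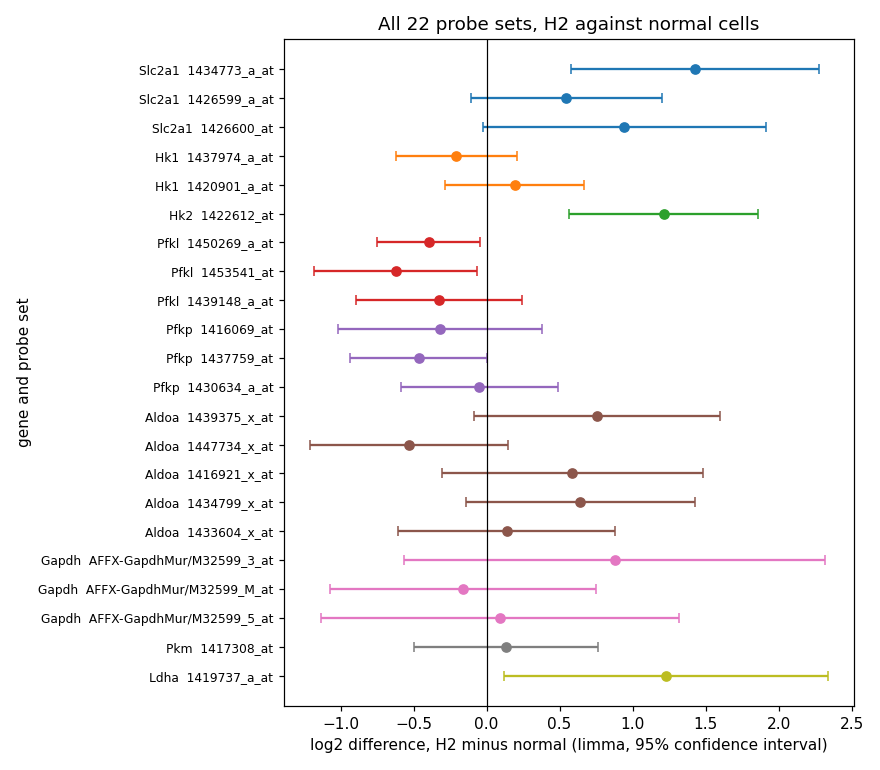
Log2 difference of H2 minus normal (horizontal axis, 4 against 8 arrays) for all 22 probe sets of the 9 genes measured, with the limma estimate as a point and its 95% confidence interval as a bar, coloured by gene. All 3 probe sets of Slc2a1 lie to the right of 0 and all 6 of Pfkl and Pfkp lie to the left, whereas the 5 of Aldoa and the 3 of Gapdh fall on both sides.

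Aldolase splits fructose bisphosphate into triose phosphates, and Aldoa encodes its most widely expressed form. All 5 Aldoa probe sets are of a class that the array maker marks as able to hybridise with other transcripts, so their signals may mix related genes. The brightest read 5.84, 6.41 and 6.62 in H1 lesions and 6.01, 6.24, 7.10 and 8.31 in H2 lesions. The normal captures had a lowest value of 5.47, a median of 6.04 and a highest of 7.47. Only H2 replicate 7 exceeded every normal array, so the H2 mean rested on 1 or 2 arrays.

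The difference of this Aldoa probe set was 0.76 ± 0.40 in H2, with a limma adjusted p of 0.284, and 0.13 ± 0.44 in H1. Of the 5 probe sets, 4 averaged higher in H2 and 1 averaged lower, at -0.53. That probe set had its lowest signal, 5.12, in H2 replicate 7, the array on which the brightest had its highest. The probe sets of Aldoa therefore disagree on the direction, and none was called.

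Glyceraldehyde-3-phosphate dehydrogenase oxidises triose phosphate and produces NADH, and Gapdh is often used as a reference gene. Its 3' control probe set read 7.37, 7.98 and 7.98 in H1 lesions and 8.02, 8.29, 8.99 and 10.33 in H2 lesions. The normal captures ran from 5.62 through a median of 7.99 to 10.26. Its SD over the 15 arrays was 1.25, in the 96.5th percentile of all probe sets, so it was among the more variable signals and not a flat one.

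The Gapdh differences in H2 were 0.88 ± 0.68 for the 3' control (adjusted p = 0.505 over all probe sets), -0.16 for the middle one and 0.09 for the 5' one. The signal at the 3' end exceeded that at the 5' end by 2.54 in H1, 3.32 in H2 and 2.53 in normal cells on the log2 scale. The same difference for the actin control Actb was -0.70 in H1, -0.003 in H2 and -0.63 in normal cells. The means of this measure of how evenly the transcript was read thus differed between H2 and normal cells, but the arrays overlapped. For Gapdh it ran from 2.66 to 4.58 in H2 and from 1.55 to 3.25 in normal cells. For Actb it ran from -0.29 to 0.25 in H2 and from -1.60 to -0.03 in normal cells. Apart from a fit with the Actb difference as a covariate, its part in the H2 values of other genes was not tested. In that fit 92 of all genes were called between H2 and normal cells, against 615 without the covariate. Of the 8 called genes around the pathway, described below, 1 stayed called, Slc16a1. With the Actb difference as a covariate the H2 difference of Hk2 was 0.82, with an adjusted p of 0.268.

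Pyruvate kinase makes pyruvate and ATP in the last step of glycolysis, and Pkm encodes the form found outside liver and red cells. It read 5.00, 5.06 and 5.11 in H1 lesions and 5.11, 4.81, 5.66 and 5.33 in H2 lesions, with a normal range of 4.19 to 6.15 and a median of 4.93. All 7 lesions were inside the normal range. The differences were -0.04 ± 0.33 in H1 and 0.13 ± 0.30 in H2, with an H2 interval of -0.50 to 0.77. The probe set does not separate the splice forms of the gene here, so nothing can be said of their ratio.

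Ldha encodes the muscle-type subunit of lactate dehydrogenase, which favours lactate formation. It read 5.09, 6.27 and 6.32 in H1 lesions and 7.07, 5.49, 6.47 and 7.01 in H2 lesions. The normal captures had a lowest value of 3.13, in replicate 2, a median of 5.35 and a highest of 6.71. H2 replicates 1 and 7 were above every normal array, and the other 2 were inside the normal range, as were all 3 H1 arrays.

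The Ldha difference was 1.23 ± 0.53 in H2, or 2.34-fold, with a limma adjusted p of 0.195 and 4 of 4 H2 arrays above the normal mean. In H1 it was 0.60 ± 0.58 (95% interval -0.63 to 1.84), and H1 minus H2 was -0.62 ± 0.66. With the array SD as a covariate the H2 difference was -0.07. The gene varied widely, with an SD of 1.04 over the 15 arrays, in the 93.0th percentile of all probe sets.

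**Figure D4:**
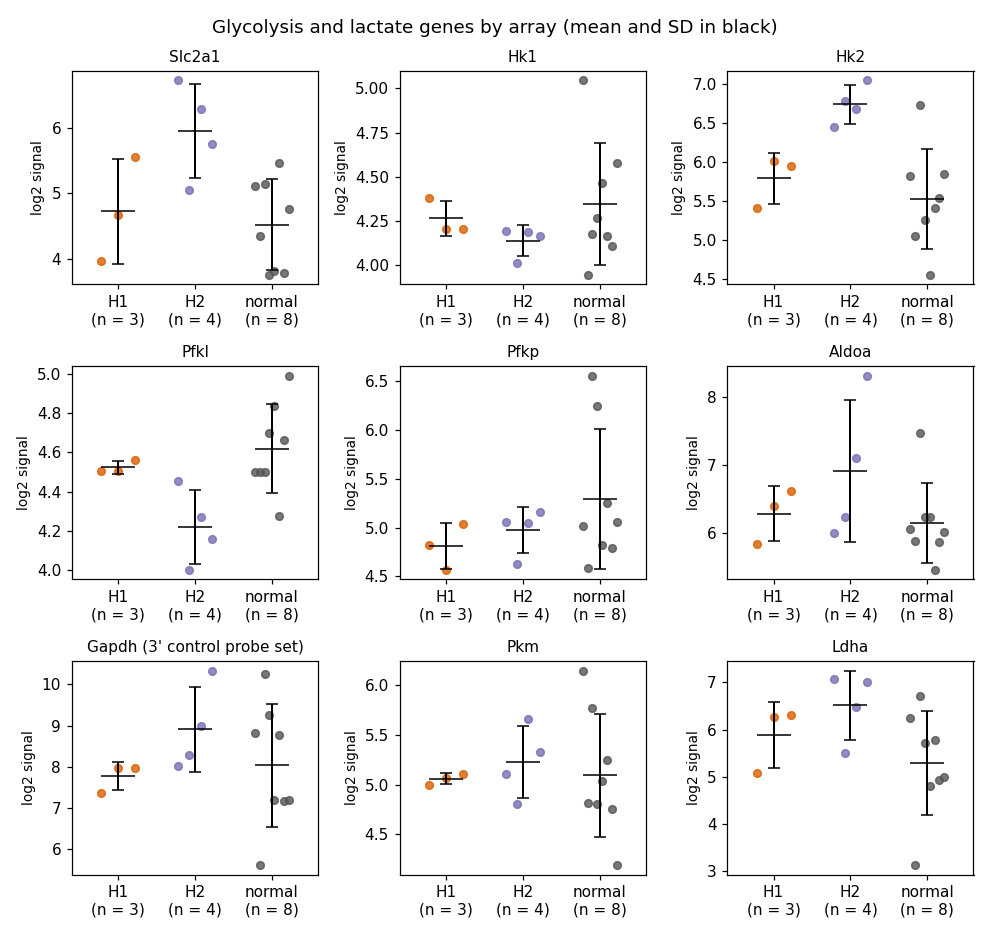
Log2 signal (vertical axis) of the brightest probe set of each gene, and of the 3' control probe set for Gapdh, on each array of H1 (n = 3), H2 (n = 4) and normal cells (n = 8), with the mean and SD in black and a separate scale in each panel. The 4 H2 points of Hk2 lie above all H1 points and above 7 of 8 normal points, and the 4 H2 points of Pfkl lie below all H1 points.

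For 4 of the 8 genes, Slc2a1, Hk2, Aldoa and Ldha, the means of the brightest probe set ran in the order H2, H1, normal. 1 of the other Slc2a1 probe sets averaged 4.86 in H1, 4.77 in H2 and 4.22 in normal cells, so this order did not hold for all probe sets of that gene. The steps between H1 and normal cells, 0.13 to 0.60, were within 1 SD of the normal captures for all 4. The steps between H1 and H2 exceeded the SD of both groups for Slc2a1 and Hk2 and did not for Aldoa and Ldha. Pfkl and Hk1 ran in the opposite order, normal, H1, H2.

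Of the genes outside the list, those with the most similar pattern were ranked by the root mean square difference from the gene, both centred on their own means, over all 15 arrays. For Slc2a1 the nearest were Eci1 (0.46), Brip1os (0.47) and Sulf1 (0.47), against an SD of 0.92 for Slc2a1 itself. For Hk2 they were Dnajc1 (0.32), S100g (0.32) and Hint2 (0.33), against an SD of 0.72. For Ldha they were Ndufc2 (0.39), Rpl41 (0.40) and Tubgcp4 (0.41), against an SD of 1.04.

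The genes around the pathway were taken from 9 lists with 94 measured genes, the listed glycolytic genes left out. Between H2 lesions and normal cells 8 of the 94 were called higher and 0 lower, 8.51% against 2.89% of all genes, and 20 had an unadjusted p under 0.05, 21.3% against 21.4% of all genes. Of the 8 calls, 6 held without the 2 normal arrays of narrowest spread (replicates 2 and 8), 3 without H2 replicate 6, 2 without H2 replicate 7 and 1, Slc16a1, with the array SD as a covariate. Between all lesions and normal cells 2 were called, both higher, against 0.28% of all genes. Between H1 and normal cells and between H1 and H2 limma called 0. At an unadjusted p under 0.05 the counts were 5 (5.32% against 4.23% of all genes) and 15 (16% against 12.3% of all genes).

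Lactate handling gave the largest share. Of 9 genes for other lactate dehydrogenase subunits and for monocarboxylate transport, 3 were called higher in H2 and the median was 0.50. Slc16a1 encodes MCT1, a proton-linked transporter that carries lactate and pyruvate in both directions. It read 5.00, 6.41 and 6.62 in H1 lesions and 6.65, 7.29, 7.22 and 6.99 in H2 lesions, against a lowest of 4.29, a median of 4.54 and a highest of 5.57 in normal cells. All 4 H2 arrays lay above every normal array, as held for 2.7% of all genes, and so did 2 of 3 H1 arrays.

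The Slc16a1 difference was 2.39 ± 0.29 in H2 (limma adjusted p = 0.0011) and 1.95 ± 0.30 over all lesions (adjusted p = 0.0119). It was the only one of these genes called in all 15 fits with 1 array left out and in all 13 other settings run, in both comparisons, with H2 differences of 1.03 to 2.53. In H1 alone it was 1.36 ± 0.33, with an adjusted p of 0.742. A second, dimmer Slc16a1 probe set differed by -0.33 in H2 and was not called.

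Slc16a7 encodes MCT2, a related transporter of higher affinity. It read 6.96, 5.22 and 4.89 in H1 lesions and 5.73, 5.94, 5.20 and 7.20 in H2 lesions, with a normal range of 2.81 to 4.89. All 4 H2 arrays were above all normal arrays, as held for 2.7% of all genes in this comparison. The difference was 2.15 ± 0.47 in H2 (adjusted p = 0.0239) and 2.01 ± 0.39 over all lesions (adjusted p = 0.0379). The H2 call was lost without H2 replicate 5 (0.0548) or 7 (0.101), and the call over all lesions was lost in 10 of 15 fits with 1 array left out, with adjusted p-values up to 0.0926. Slc16a3, which encodes the lactate exporter MCT4 of glycolytic cells, differed by -0.10 in H2, and Bsg, the chaperone of these transporters, by 0.50, neither called.

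Ldhb encodes the heart-type subunit of lactate dehydrogenase, which favours the oxidation of lactate to pyruvate. It read 5.17, 6.49 and 6.49 in H1 lesions and 8.77, 8.14, 8.38 and 8.77 in H2 lesions. The normal captures had a lowest value of 4.15, a median of 5.84 and a highest of 7.64. All 4 H2 arrays lay above every other array of the study. H2 arrays lay above all normal arrays for 2.7% of all genes. The difference was 2.69 ± 0.52 in H2 (adjusted p = 0.0134), the other 3 probe sets were also higher, by 0.95 to 2.12, and in H1 the difference was 0.23. H1 minus H2 was -2.47 ± 0.65 with an adjusted p of 0.283. The H2 call was lost without H2 replicate 6 (0.0503) or 7 (0.0581).

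Of 13 measured genes for the entry of pyruvate into mitochondria, 2 were called higher in H2, and the median of the list was 0.10. These were Dlat and Dld, subunits of the pyruvate dehydrogenase complex, which turns pyruvate into acetyl-CoA. Dlat averaged 4.25 ± 0.75 in H1, 5.75 ± 0.56 in H2 and 3.39 ± 0.89 in normal cells, an H2 difference of 2.36 ± 0.45 (adjusted p = 0.0127). Dld averaged 4.83 ± 0.47 in H1, 5.46 ± 0.71 in H2 and 3.83 ± 0.62 in normal cells, an H2 difference of 1.64 ± 0.36 (adjusted p = 0.0237). Both calls were lost without H2 replicate 6 or 7, with adjusted p-values of 0.0580 to 0.1002. Another Dlat probe set differed by 2.18, and 1 of each gene differed by -0.45 (Dlat) and -0.15 (Dld). The Dlat probe set that stands for the gene is of the class marked as able to hybridise with other transcripts, while the one at 2.18 is not. With the mean of all probe sets the Dld difference was 0.74 and not called (adjusted p = 0.0587). Pdha1, the catalytic subunit of the same complex, differed by 2.67 ± 0.81 without a call (adjusted p = 0.0796), and Pdk1, the kinase that inhibits it, by 0.51.

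The pentose phosphate pathway branches off at glucose 6-phosphate and supplies NADPH and ribose. Of 9 measured genes 1 was called higher in H2, and the median was 0.38. Tkt, the transketolase that links this pathway back to glycolysis, averaged 7.58 ± 0.17 in H1, 8.70 ± 0.54 in H2 and 6.32 ± 1.38 in normal cells. The H2 difference was 2.38 ± 0.60 (adjusted p = 0.0402), and the call was lost in 11 of 15 fits with 1 array left out, held only without normal replicate 1, 2, 3 or 6. Its other 2 probe sets differed by -0.08 and 0.17, and with the mean of all probe sets the difference was 0.82 and not called (adjusted p = 0.118). The called Tkt probe set is of the class marked as able to hybridise with other transcripts, and the other 2 are not. Pgd, which makes NADPH, differed by 3.50 ± 0.98 without a call (adjusted p = 0.0623).

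Among 15 measured other glycolytic enzymes 0 were called in H2 by limma, of which 5 had an unadjusted p under 0.05 (4 higher, 1 lower), and the median was 0.24. Tpi1, which interconverts the triose phosphates, differed by 1.81 ± 0.50 (adjusted p = 0.0585), Bpgm, which makes bisphosphoglycerate for haemoglobin in red cells, by 1.89 ± 0.55 (0.0725), and Pgam1, a phosphoglycerate mutase, by 1.35 ± 0.46 (0.114). Pgk2, known as the testis form of phosphoglycerate kinase, differed by -1.14 (0.0747), and Pgk1, the widely expressed form, by -0.29. In H1 the same 5 genes differed by -0.61 to 0.68. The other enzymes of glycolysis thus averaged on both sides of normal cells in H2, as the listed genes did.

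Among 11 measured other glucose transporters 0 were called in H2, with 1 lower at an unadjusted p under 0.05, 8 of 11 averaging lower and a median of -0.23. Slc2a9, known in mouse as a urate and hexose transporter, differed by -1.08 (adjusted p = 0.106), and Slc2a3, the neuronal glucose transporter, by 0.12. The 4 measured regulators of phosphofructokinase gave 0 calls, 0 at an unadjusted p under 0.05 and a median of 0.17, with Tigar, a fructose bisphosphatase induced by p53, at 0.35 and Pfkfb3 at 0.07. Of 7 gluconeogenesis genes 0 were called, 0 at an unadjusted p under 0.05, and all 7 averaged lower in H2, with a median of -0.07 and Pck1, the cytosolic phosphoenolpyruvate carboxykinase, at -1.78 (adjusted p = 0.316).

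Of 17 measured genes of the HIF pathway and HIF1 targets outside glycolysis, 2 were called higher in H2 and the median was 0.06. Ddit4, a stress-induced inhibitor of mTORC1 that hypoxia is known to raise, averaged 5.48 ± 0.54 in H1, 7.15 ± 0.89 in H2 and 4.31 ± 1.10 in normal cells, an H2 difference of 2.84 ± 0.54 (adjusted p = 0.0127). Its call was lost without H2 replicate 6 (0.0517) or 7 (0.0597). Vhl, which marks HIF for degradation, averaged 5.89 ± 0.12 in H1, 7.03 ± 0.32 in H2 and 5.83 ± 0.36 in normal cells, an H2 difference of 1.20 ± 0.21 (adjusted p = 0.0101), whereas its second probe set differed by -0.28. The Vhl call held in all 15 fits with 1 array left out. It was lost with repeated quantile normalization (0.66, adjusted p = 0.156), the mean of all probe sets (0.46, 0.0952), the replicate block (1.18, 0.127), the array SD (0.97, 0.0949) and the Actb difference (1.01, 0.0684) as a covariate. Hif1a itself differed by 1.33 ± 0.52 (adjusted p = 0.154). Among 9 measured genes of the Myc family 0 were called, with 2 higher at an unadjusted p under 0.05 and Myc at 0.74 (adjusted p = 0.200).

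**Figure D5:**
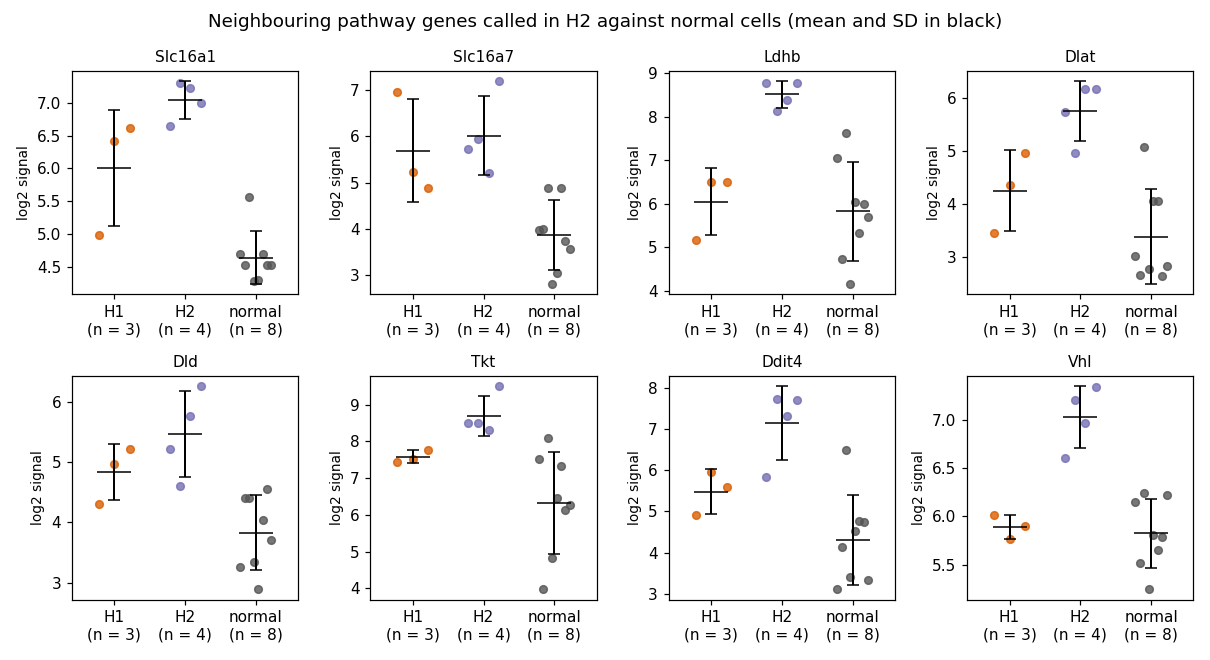
Log2 signal (vertical axis, separate scale in each panel) of the 8 neighbouring pathway genes called between H2 and normal cells, on each array of H1 (n = 3), H2 (n = 4) and normal cells (n = 8), with the mean and SD in black. The 4 H2 points lie above all 8 normal points for Slc16a1, Slc16a7, Ldhb, Dld, Tkt and Vhl, and above 7 of 8 for Dlat and Ddit4. Over all genes 2.7% had all H2 arrays above all normal arrays. The genes shown were chosen by their calls in this same comparison, so the separation is not a separate result.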

How the data were processed

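RNA from laser-captured cells was extracted with the PicoPure kit, amplified with WT-Ovation One-Direct and hybridised to Affymetrix arrays, per the labels' protocols. The deposited log2 values were made by the authors with affy and RMA, per the submitters' processing notes, which give no version. Of 45101 probe sets, 64 are array controls, 34945 carry 1 gene symbol, 932 several and 9160 none. Symbols came from the array's annotation, and 34741 gene IDs were found in the GRCm38.p6 table. Groups followed the labels (3 H1, 4 H2, 8 normal). The number of arrays limits the precision.

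Each gene was represented by the probe set of highest mean signal (18193 genes). limma 3.58.1 in R 4.3.3 (lmFit, eBayes, no covariate) was fitted to all 15 arrays, with 2 groups (lesions, normal) or 3 (H1, H2, normal), and also over all probe sets, and was tested on simulated data. Calls needed a Benjamini-Hochberg adjusted p under 0.05. The members and lists were chosen with earlier results of these data known, so they were given no list test. In each pathway list, the genes named were the called ones and up to 4 with the smallest p, plus a few chosen for their role after their values were seen (Slc2a3, Slc16a3 and Pgk1, and the markers Abca3, Cd68, Col1a2 and Cyp2f2). Alternatives covered normalization, filtering, the choice of probe set, the prior, array weights, covariates, a replicate block and leaving out each array.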

Additional observations from a re-analysis of the deposited data

Results flagged for a closer look

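The highest and the lowest array of each of 11 signals (the 8 genes and the 3 Gapdh controls) were set against the rest of their group, for H2, all lesions and normal cells, 33 groups in all. In 3 groups an array stood apart by Dixon's criterion, where chance gives about 1 in 20. Hk1 was lowest in H2 replicate 5, at 4.01 against 4.16 for the next array, a small gap in a group of little spread. Aldoa was highest among normal captures in replicate 3, at 7.47 against 6.25 for the next. The middle Gapdh control was also highest in normal replicate 3, at 7.73 against 6.31. Normal replicate 3 was the normal array of widest spread. Without it the H2 difference of Hk2 was called and that of Slc2a1 was also called.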

How the results depend on the processing

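The calls between H1 and normal cells, between all lesions and normal cells, and between H1 and H2 stayed at 0 of 8 genes in all alternatives. Between H2 and normal cells the count of 1 became 2 with values centred on array medians or with array weights. It became 0 with repeated quantile normalization, a trended robust prior, the replicate block, only the arrays compared, the array SD or the Actb 3' to 5' difference as a covariate, every probe set as a feature, or without the 2 normal arrays of narrowest spread (added after seeing the data). It ranged from 0 to 2 with 1 array left out. Leaving out 1 array moved the medians between 0.12 and 0.42 (lesions against normal), -0.06 and 0.17 (H1 against normal), 0.19 and 0.63 (H2 against normal), and -0.58 and -0.15 (H1 against H2). With the array SD as a covariate the median changed sign in all 4 comparisons, to -0.058 for lesions against normal, -0.023 for H1 against normal, -0.16 for H2 against normal and 0.19 for H1 against H2.

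No sign change touched a called gene. For Pkm, lesions against normal was -0.070 with the replicate block, -0.30 with the array SD, -0.030 with Actb, -0.14 without the 2 narrowest normal arrays and -0.070 to 0.21 with 1 array left out. For Pkm, H2 against normal was -0.070, -0.55, -0.042 and -0.065 in the same settings and -0.012 to 0.28 with 1 array left out. For Pkm, H1 against normal was 0.028 with quantile normalization, 0.081 with array weights and -0.17 to 0.11 with 1 array left out. With the replicate block, H1 against normal was 0.13 for Hk1 and -0.24 for Aldoa, and H2 against normal was 0.0030 for Pfkp. With the array SD, H2 against normal was -0.070 for Ldha, and H1 against H2 was 0.28 for Pfkp, 0.0072 for Aldoa, 0.42 for Pkm and 0.49 for Ldha. With Actb, H1 against H2 was 0.023 for Pkm and 0.12 for Ldha. With the mean of all probe sets, H1 against normal was 0.0059 for Pfkp, and H1 against H2 was -0.19 for Hk1 and 0.28 for Pfkp. With the most variable probe set, H1 against normal was 0.036 for Pfkl, H2 against normal was 0.19 for Hk1 and H1 against H2 was -0.51 for Hk1. Leaving out 1 array also turned H1 against normal for Slc2a1 (-0.21 to 0.59), Aldoa (-0.034 to 0.36) and Hk1 (-0.14 to 0.020). The cause was not tested.

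The count of all genes called moved more. Between H2 and normal cells it was 615 (525 higher, 90 lower), and it became 186 with repeated quantile normalization, 2199 (1586 higher, 613 lower) with array weights, 39 with the replicate block, 391 with only the arrays compared, 155 (57 higher, 98 lower) with the array SD, 92 with Actb, 347 without the 2 narrowest normal arrays and 119 to 1378 with 1 array left out. Between all lesions and normal cells it was 53, with 222 under array weights, 93 under the replicate block, 86 under the array SD (40 higher, 46 lower) and 8 to 238 with 1 array left out. Of the 8 pathway calls, 1 to 8 held over the 13 other settings (2 with the replicate block) and 2 to 8 with 1 array left out. The sources used here do not say whether equal replicate numbers pair a lesion with a normal capture. Correlations of the 7 pairs of equal number ran between -0.14 and 0.38, and 4 exceeded 0.1. Of the 7 lesions, 1 correlated best with its own number. These correlations cannot decide whether such pairs share a mouse, as no captures are known to share one. The replicate block therefore rests on a shared number only.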
